A study of Rattus norvegicus with 8 samples.

Results

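Rat kidney allografts treated with a neutralizing antibody against the interleukin-6 receptor were compared with allografts treated with prednisolone, a synthetic glucocorticoid. The members are the 4 arrays whose labels give either treatment, 2 per treatment, out of 8 arrays in 4 groups of 2. Kidneys of Dark Agouti donors (DA; RT1a) were transplanted into Lewis recipients (RT1l) whose own kidneys had both been removed, an MHC-incompatible pair of inbred strains. All animals were males of 120 to 250 g, each graft had been kept at 4 °C for 25 min in University of Wisconsin solution, and tissue was taken 24 h after transplantation. Both treated groups had donors lighter than their recipients by 20 to 50% of recipient weight. The antibody was given as a single intravenous dose of 500 µg and prednisolone as a single intravenous dose of 15 mg/kg, each immediately after transplantation. The other groups were untreated, with the same high weight difference or with a low one of 0 to 20%. The labels state neither the clone of the antibody nor its binding to the rat receptor, and no array of vehicle or control antibody was analysed here. The comparison asks whether blocking one cytokine receptor and giving a broad glucocorticoid left the graft with different transcript levels at 24 h.

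Interleukin-6 signals through its receptor, Il6r, and the shared subunit gp130, Il6st, to the transcription factor Stat3, which induces acute-phase proteins and the feedback inhibitor Socs3. Prednisolone binds the glucocorticoid receptor, Nr3c1, which induces genes such as Fkbp5, Tsc22d3 and Per1 and restrains genes driven by NF-kB and interferon signals. Interferon-induced genes are switched on through interferon-response elements, in which GAAA-type repeats are bound by interferon regulatory factors. In a kidney allograft such genes are known to rise as leukocytes of the recipient enter and release interferon-gamma.

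Levels are given as log2 of the processed Cy3 signal relative to the 75th percentile of the gene signals of the same array, so 0 is that percentile. A level compares arrays for one probe and not one probe with another. Differences are antibody mean minus prednisolone mean, with the moderated standard error (SE) of a limma fit over all 8 arrays. The design text calls the 2 arrays of a group biological replicates, so n = 2 per group, except in fits that leave out an array. The p-values measure only the spread between these samples.

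The antibody arrays lay at positions 1 and 2 and the prednisolone arrays at positions 3 and 4 of one slide, so position and treatment cannot be told apart. Signals exceeded background for 71.5% and 74.1% of gene spots after the antibody and for 70.2% and 64.5% after prednisolone. All 16 genes of a kidney identity list were well above background on all 4 arrays. On prednisolone array 2, 62 probes that were bright on the other 7 arrays were dark, against at most 1 on the other treated arrays, and 53 of them lay in a streak at array columns 80 to 85 from row 200. Untreated high-difference array 2, which is in the fit, had 52 such probes, 46 of them in the same area. Both of these arrays lay at position 4 of their slides. Their shares of spots above background, 64.5% and 65.3%, were the lowest of all arrays. The T cell receptor chain Cd3g read -7.04 on prednisolone array 2 and -1.27 to -1.34 on the other treated arrays. The ubiquitin ligase Syvn1 read -7.20 on prednisolone array 2, against 3.20 to 3.25. Both have dark spots in the streak, and their differences are not interpreted.

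No gene differed between the treatments after adjustment. Of 24454 genes tested, 0 (0%) had an adjusted p under 0.05 by limma with Benjamini-Hochberg adjustment, and the smallest adjusted p was 0.124. At an unadjusted p under 0.05 there were 833 genes, of which 631 (2.58%) were higher after the antibody and 202 (0.826%) higher after prednisolone. This split turned with the processing, to 300 and 315 with normexp background correction, and was 704 and 581 with no filter on dim probes. All adjusted p-values of the genes named here exceeded 0.5. The treated arrays did not overlap for 2906 genes (11.9%) higher after the antibody and for 3510 (14.4%) higher after prednisolone. The median SE was 0.27 and the median 95% confidence interval, not adjusted for the number of genes, reached 0.66 to either side. For a typical gene, smaller differences could not be told from 0. Much larger differences did not pass after adjustment either.

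The prednisolone pair was the more variable one. Over the genes tested the antibody arrays differed by a median of 0.216 log2 units and the prednisolone arrays by 0.434. A difference of over 1 log2 unit, 2-fold, separated the antibody arrays for 600 genes (2.45%) and the prednisolone arrays for 4560 (18.6%). For 8781 genes (35.9%) both antibody levels lay between the 2 prednisolone levels. A fit without 1 prednisolone array leaves 1 array of that treatment, so its p-values hold no spread between prednisolone samples. Genes passing in such fits are not counted here. The median difference over all genes was -0.055 without prednisolone array 1 and 0.015 without array 2. Fits without an antibody array have the same limit.

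**Figure D1:**
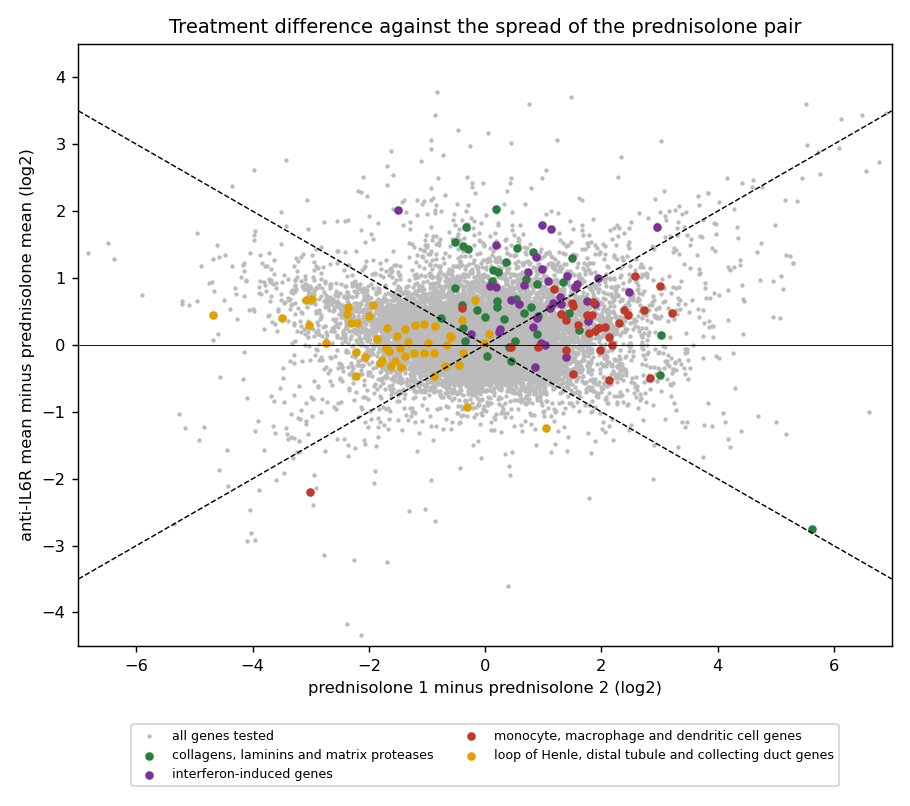
Each point is a gene: the horizontal axis is its level on prednisolone array 1 minus array 2 and the vertical axis the antibody mean minus the prednisolone mean, both in log2 units; 17 genes lie outside the axes. Dashed lines mark where the antibody mean equals the level of one prednisolone array, and the coloured lists spread to opposite sides along the horizontal axis: monocyte and macrophage genes right, distal tubule genes left, matrix genes near the centre and above 0.

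Promoters of interferon-induced genes were inspected, since this list held the most genes with an unadjusted p under 0.05 among all lists. The 250 bases before the transcription start of 33469 promoters (RefSeq, GRCr8) were searched on both strands for GAAANNGAA, a core of interferon-response elements. Of the 35 interferon-induced genes tested, 27 had a promoter in the table and 17 of these (63%) held a match, against 2717 (8.12%) of all promoters. Among the 11 genes of the list with an unadjusted p under 0.05, 8 had a promoter in the table and 6 held a match (75%). Of the other 24 genes of the list, 19 had a promoter there and 11 held a match (57.9%). None of 7 promoters of MHC class II genes held one in this window. A match is a description of the letters and not a measured binding site. The windows of 100 bases below show the match, with its overlapping repeat where there is one, in capitals. They belong to the 6 genes with a match and an unadjusted p under 0.05, which were chosen after their values were seen. They are written 5′ to 3′ on the strand of the gene.
Bst2, chr16:18255039-18255138, minus strand: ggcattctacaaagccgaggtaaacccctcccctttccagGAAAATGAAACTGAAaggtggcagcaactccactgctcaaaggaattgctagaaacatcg
Irf7, chr1:205800032-205800131, minus strand: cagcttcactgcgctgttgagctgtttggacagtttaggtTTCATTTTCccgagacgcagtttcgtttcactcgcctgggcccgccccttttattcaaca
Lgals3bp, chr10:104127849-104127948, minus strand: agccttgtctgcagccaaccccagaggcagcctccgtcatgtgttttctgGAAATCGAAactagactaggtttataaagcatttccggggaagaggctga
Oas1a, chr12:41330366-41330465, plus strand: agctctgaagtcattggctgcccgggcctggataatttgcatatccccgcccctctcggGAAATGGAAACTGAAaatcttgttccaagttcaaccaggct
Ifi27, chr6:128355103-128355202, plus strand: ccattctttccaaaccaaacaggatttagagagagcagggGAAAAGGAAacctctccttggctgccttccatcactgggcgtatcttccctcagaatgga
Igtp, chr10:42874904-42875003, plus strand: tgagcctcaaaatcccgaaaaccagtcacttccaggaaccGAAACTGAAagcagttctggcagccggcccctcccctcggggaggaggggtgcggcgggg

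The capitals in Bst2 and Oas1a hold 2 overlapping matches each, starting 131 and 125 bases before the start in Bst2 and 41 and 35 bases before it in Oas1a. In Irf7 the match lies on the opposite strand and so reads as its reverse complement, from 68 bases before the start. The match begins 50 bases before the start in Lgals3bp, 103 in Igtp and 169 in Ifi27. Of the 2 matches of Ifi27 in the 250 bases searched, 1 lies outside the window shown.

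Interferon-induced genes stood higher after the antibody than after prednisolone for most members, but largely through prednisolone array 2. Of 35 members tested, 33 had a difference above 0, with a list median of 0.72 beside -0.01 over all genes. An unadjusted p under 0.05 was reached by 11 members, all higher after the antibody, and 16 did not overlap, all in that direction, beside 2.58% and 11.9% of all genes. Without the spots of the streak, 33 members were tested and 9 had an unadjusted p under 0.05. Against prednisolone array 1 alone the median over the list was 0.10, with 23 of 35 members above 0, and against array 2 alone it was 1.26, with 35 of 35.

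Bst2 (tetherin, a membrane protein that holds back budding viruses) read 3.52 and 3.74 on the antibody arrays and 0.86 and 2.36 on the prednisolone arrays. The groups did not overlap, with a difference of 2.02 ± 0.46 (SE, n = 2 per group, unadjusted p = 0.00391, limma), and a further Bst2 probe gave 2.04. Cxcl9, an interferon-gamma-induced chemokine that draws T cells through Cxcr3, read -1.20 and -1.36 after the antibody and -2.68 and -2.86 after prednisolone. Here both prednisolone arrays lay together below both antibody arrays, and the difference was 1.5 ± 0.34 (unadjusted p = 0.00391, limma). The Cxcl9 spot lies in the area of the streak, though it was well above background on prednisolone array 2. Zbp1, a sensor of Z-form nucleic acids, read -2.18 and -1.89 against -2.92 and -3.79, a difference of 1.32 ± 0.33. The RNA sensor Dhx58 gave 0.86 ± 0.23 by its brighter probe and -0.06 by another, so its probes disagree.

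Among the genes whose promoters are printed above, Irf7, the regulator that amplifies the type I interferon response, read 3.53 and 2.98 after the antibody and 2.08 and 0.95 after prednisolone. Its difference was 1.74 ± 0.47 and prednisolone array 2 was the lowest of the 4. The secreted glycoprotein Lgals3bp read 4.01 and 3.70 against 3.02 and 2.94, a difference of 0.88 ± 0.25 with both groups tight. The differences of Oas1a (an oligoadenylate synthetase), Ifi27 and Igtp (an immunity-related GTPase) were 0.89 ± 0.36, 0.96 ± 0.37 and 0.67 ± 0.24. In all 3 genes the antibody arrays lay above both prednisolone arrays.

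MHC class II genes, which present antigen to helper T cells and are induced by interferon-gamma, were higher after the antibody for 8 of 8 members tested, with a median of 1.08. That median was 0.35 against prednisolone array 1 alone and 1.76 against array 2 alone. RT1-Db1, a class II beta chain, read 3.20 and 3.01 after the antibody and 2.61 and 1.33 after prednisolone, a difference of 1.14 ± 0.45 (unadjusted p = 0.0412, limma). Other RT1-Db1 probes gave 1.05 and -0.86, the latter being brightest on prednisolone array 2. The alpha chain RT1-Da read 4.19 and 3.93 against 3.50 and 2.32, and RT1-Bb read 4.48 and 4.24 against 3.82 and 2.63. By the brighter probes of these class II genes, prednisolone array 2 was lowest and array 1 lay below the antibody arrays by under 1 log2 unit. Probes of such polymorphic genes can cross-hybridise between members and between donor and recipient alleles. Of 20 genes of class I loading and the immunoproteasome, 17 were above 0 with a median of 0.51 and none had an unadjusted p under 0.05. Against prednisolone array 1 the median was 0.07, with 11 above 0, and against array 2 it was 0.83, with 19. The loading lectin Calr gave 0.49 ± 0.21 and the class I gene RT1-A2 0.55 ± 0.26.

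Of 29 genes of T and NK cells, 28 had a difference above 0, with a median of 0.79. The 3 with an unadjusted p under 0.05 were all higher after the antibody, beside 2.58% of all genes. They were Cd3e, Cd2 and Tbx21, which were well above background on only 2, 3 and 2 of the 4 treated arrays. Of the 29, 16 were well above background on all 4, with a median of 0.695. The list median of 0.79 includes the dark spot of Cd3g, and without the spots of the streak it was 0.77. In bulk tissue RNA, fewer cells of a type and less RNA per cell cannot be told apart. Cd2, an adhesion receptor of T cells, read -4.78 and -4.12 after the antibody and -5.11 and -5.99 after prednisolone, a difference of 1.11 ± 0.38 (unadjusted p = 0.0250, limma). Cd3e, a chain of the T cell receptor complex, was well above background on both antibody arrays (-5.06 and -5.61) and on neither prednisolone array, and was at least 1.16-fold higher after the antibody, although normexp background correction turned its difference to -0.05. Cd3d, another chain of that complex with a bright probe, read -0.61 and -0.84 against -0.82 and -1.43, with a difference of 0.40 ± 0.25. The list median was 0.01 against prednisolone array 1 and 1.69 against array 2, so the T cell genes of prednisolone array 1 stood at the level of the antibody arrays. The cytotoxic protease Gzmc was further apart, at -2.08 and -3.05 against -4.52 and -4.84, a difference of 2.11 ± 0.36 (unadjusted p = 0.000893, limma).

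The homing chemokines Ccl19 and Cxcl13, which guide T cells and B cells in lymphoid tissue, were also higher after the antibody. Ccl19 read 5.65 and 3.49 on the antibody arrays and 0.86 and 2.48 on the prednisolone arrays, a difference of 2.90 ± 0.86 (unadjusted p = 0.0138, limma). Cxcl13 read 0.76 and -0.47 against -1.13 and -1.72, a difference of 1.57 ± 0.53. For both genes the groups did not overlap, although the antibody arrays differed from each other by over 1 log2 unit. Of the 23 chemokine genes tested, 18 were above 0 with a median of 0.62. The 3 that reached an unadjusted p under 0.05 were higher after the antibody, beside 2.58% of all genes. The median was -0.14 against prednisolone array 1 and 1.52 against array 2. Ccl2, the main monocyte attractant, read 2.95 and 3.18 between prednisolone levels of 4.21 and 0.86.

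Monocyte, macrophage and dendritic cell genes separated the prednisolone arrays from each other more than the treatments. Of 32 members, 24 had both antibody levels between the prednisolone levels, and 0 had an unadjusted p under 0.05. Prednisolone array 1 exceeded array 2 in 30 of the 32, by a median of 1.88. Csf1r, the receptor for the macrophage growth factor, read -0.20 and -0.55 after the antibody and -0.17 and -1.48 after prednisolone. A much dimmer Csf1r probe did separate the treatments, at -5.23 and -4.96 against -6.00 and -6.16, a difference of 0.99. That probe was well above background on both antibody arrays and on neither prednisolone array. Neutrophil genes and their chemokines showed the same order in 10 of 12 members, with a median difference of 2.64 between the prednisolone arrays. Cxcl2, a neutrophil attractant, read -2.95 and -3.68 after the antibody and -2.00 and -6.43 after prednisolone.

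Matrix and stromal genes stood higher after the antibody against each prednisolone array taken alone. Of 39 collagens, laminins, matrix proteases and mesenchymal receptors tested, 34 had a difference above 0, with a median of 0.57. The arrays did not overlap for 25 of 39 in the direction of the antibody, beside 11.9% of all genes, and for 1 in the other, beside 14.4%. An unadjusted p under 0.05 was found for 9, all higher after the antibody, beside 2.58% of all genes. The list median was 0.46 against prednisolone array 1 and 0.97 against array 2.

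Pdgfrb, the platelet-derived growth factor receptor of pericytes and fibroblasts, read 3.60 and 3.05 after the antibody and 1.65 and 2.03 after prednisolone. Its difference was 1.49 ± 0.30 (unadjusted p = 0.00214, limma), with the antibody arrays above both others. Decorin, Dcn, a collagen-binding proteoglycan, read 2.27 and 2.36 against 0.39 and 0.72, a difference of 1.76 ± 0.53. The related proteoglycan Lum was well above background on the antibody arrays (-4.35 and -5.02) and on neither prednisolone array, and was at least 1.82-fold higher. The gelatinase Mmp2 gave 0.95 ± 0.34 by its brighter probe and 0.06 by a dimmer one.

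Further extracellular matrix genes stood among the 10 with the smallest p higher after the antibody. Adamtsl2, a regulator of microfibrils, read 1.42 and 0.51 against -1.17 and -0.62, a difference of 1.86 ± 0.36, and its second probe gave 1.98. The basement membrane proteoglycan Prelp gave 1.65 ± 0.32 and the secreted carboxypeptidase-like Cpxm1 2.10 ± 0.41. The neuropeptide precursor Tac3 had the smallest p among genes bright on all 4 arrays, at -1.16 and -1.73 against -3.67 and -3.12, a difference of 1.95 ± 0.28 (unadjusted p = 0.000335, limma). In each of these 4 genes the 2 prednisolone arrays lay within 1 log2 unit of each other and below both antibody arrays.

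**Figure D2:**
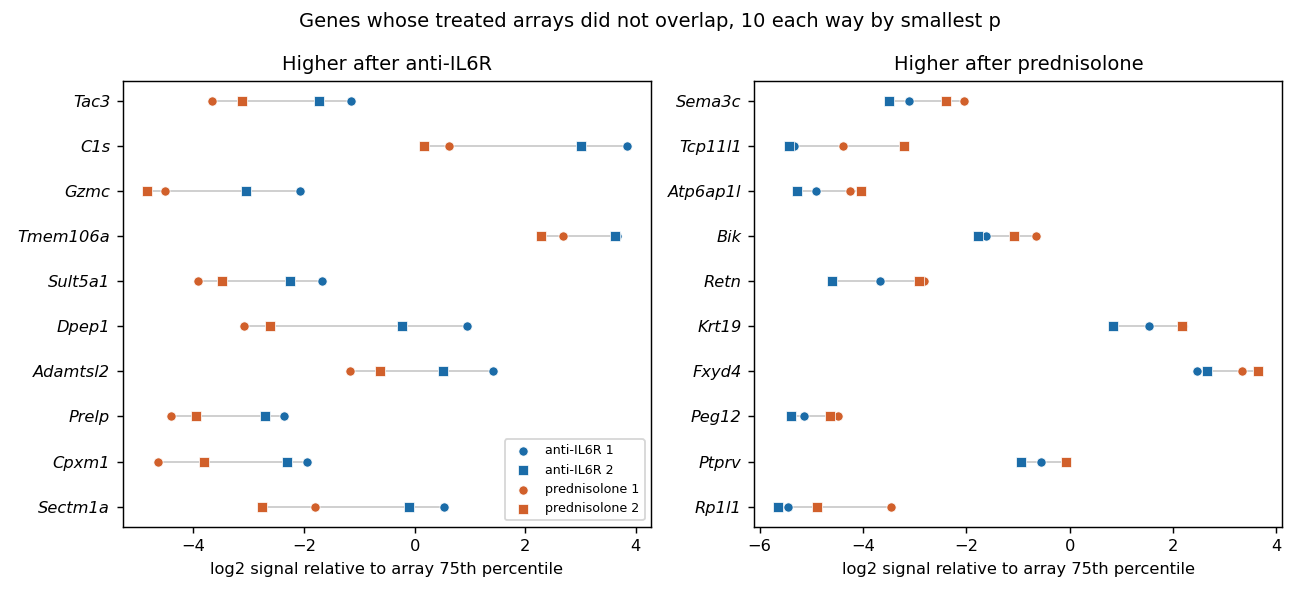
Levels on the 4 treated arrays, in log2 signal relative to the 75th percentile of each array, for the 10 genes each way with the smallest unadjusted p among genes bright on all 4 arrays whose groups did not overlap; circles are replicate 1 and squares replicate 2. C1s spans 0.17 to 3.84 and Dpep1 -3.08 to 0.95, while the genes higher after prednisolone are closer together, as for Fxyd4 from 2.46 to 3.65.

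Within the complement genes, the proteases C1s and C1r, their inhibitor Serping1 and the terminal component C7 were higher after the antibody, while the differences of the C1q chains were near 0. C1s, the serine protease of the first complement component, read 3.84 and 3.01 after the antibody and 0.62 and 0.17 after prednisolone. The difference was 3.03 ± 0.49 (unadjusted p = 0.000661, limma), 8.15-fold, and another C1s probe gave 2.68. Its partner protease C1r read 2.47 and 1.76 against 0.56 and 0.10, a difference of 1.79 ± 0.43. The inhibitor of both, Serping1, read 7.18 and 6.74 against 5.75 and 6.07, a difference of 1.05 ± 0.23. The terminal component C7 was well above background on the antibody arrays (-2.94 and -3.47) and on neither prednisolone array, and was at least 5.07-fold higher after the antibody. By the levels given, all 4 genes kept the prednisolone arrays together below the antibody arrays. A dimmer Serping1 probe gave 0.91 without overlap. Its prednisolone arrays were further apart, at -1.01 and 0.23, against 0.60 and 0.43 after the antibody. The chains of C1q, which recognises antibody and binds C1r and C1s, gave 0.00 ± 0.69 (C1qa), -0.08 ± 0.65 (C1qb) and 0.13 ± 0.75 (C1qc), with both antibody levels between the prednisolone levels. The C1q genes were named after their values were seen.

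The whole list of complement, coagulation and fibrinolysis genes was less uniform. Of 35 members, 28 were above 0 with a median of 0.32. At an unadjusted p under 0.05, 7 were higher after the antibody and 1 after prednisolone, beside 2.58% and 0.826% of all genes. Against prednisolone array 1 the list median was 0.03, with 19 members above 0, and against array 2 it was 0.83, with 31. C3, the central component, read 2.17 and 1.52 after the antibody and 1.74 and -1.56 after prednisolone, and its difference of 1.75 ± 1.09 did not stand out from the spread. C3 was named after its values were seen.

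Glucocorticoid-responsive genes did not separate the treatments. Of 28 members tested, 17 were above 0 and 11 below, with a median of 0.13, and 0 had an unadjusted p under 0.05 by limma in either direction. Non-overlapping arrays were found for 3 members each way, beside 11.9% of all genes higher after the antibody and 14.4% higher after prednisolone. Fkbp5, a co-chaperone of the receptor and a sensitive target, read 3.70 and 3.73 after the antibody and 3.91 and 3.97 after prednisolone. It was higher on both prednisolone arrays, by a difference of -0.23 ± 0.21 whose 95% confidence interval ran from -0.73 to 0.28. Further Fkbp5 probes gave -0.07 and -0.11.

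Tsc22d3 (GILZ, a mediator of the anti-inflammatory action of glucocorticoids) read 3.81 and 3.08 after the antibody and 3.33 and 4.00 after prednisolone, so the groups overlapped. The clock gene Per1 gave 0.06 ± 0.29, the transcription factor Klf9 0.02 ± 0.19 and the kinase Sgk1 -0.09 ± 0.32. The receptor gene Nr3c1 read 1.78 and 1.79 against 1.78 and 1.80, a difference of -0.01 ± 0.22 with an interval from -0.55 to 0.53. Such intervals do not show that the treatments act alike on these genes.

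Zbtb16 was near background, at -4.28 and -6.08 against -5.37 and -5.31, and could not be read at this signal. A further Zbtb16 probe was well above background on prednisolone array 2 alone, at -4.49, and was not tested. It read -6.55 to -7.11 on the other arrays. Glul, glutamine synthetase, gave 0.71 ± 0.38 and the transcription factor Klf15 0.64 ± 0.39, both higher after the antibody on average. Pck1, the gluconeogenic enzyme, read 6.27 and 5.65 after the antibody and 2.20 and 5.72 after prednisolone, so 1 prednisolone array carried its difference of 2.0 ± 1.21. The median of the glucocorticoid list was -0.17 against prednisolone array 1 and 0.19 against array 2, and so changed sign with the array left out. In the same search of promoters, AGAACA, one arm of the glucocorticoid-response element, was found in 2 of 24 promoters of the list (8.33%) and in 17.5% of all promoters.

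**Figure D3:**
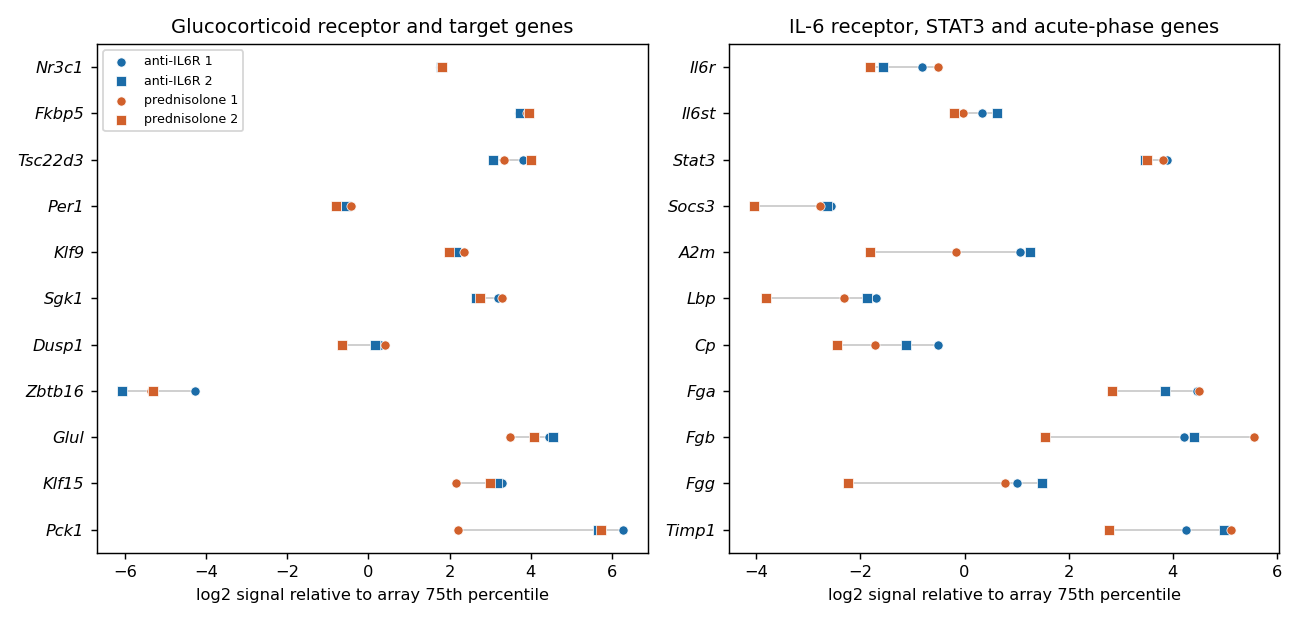
Levels on the 4 treated arrays, in log2 signal relative to the 75th percentile of each array, for the glucocorticoid receptor and its targets (left) and for the interleukin-6 receptor, Stat3 and acute-phase genes (right); circles are replicate 1 and squares replicate 2. Nr3c1 and Fkbp5 have 4 points nearly on top of each other, Pck1 has prednisolone array 1 apart at 2.20, and Fgb spans 1.55 to 5.57 between the prednisolone arrays.

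Genes of the interleukin-6 pathway showed small or variable differences. The antibody targets the receptor protein, and the transcript Il6r read -0.81 and -1.56 after the antibody and -0.50 and -1.81 after prednisolone, a difference of -0.03 ± 0.45. Il6st, the gp130 subunit, read 0.33 and 0.63 against -0.02 and -0.21 without overlap, a difference of 0.59 ± 0.21 (unadjusted p = 0.0299, limma). Stat3 read 3.88 and 3.48 against 3.81 and 3.51, a difference of 0.02 ± 0.24. Socs3, the feedback inhibitor, read -2.57 and -2.64 after the antibody and -2.77 and -4.05 after prednisolone, a difference of 0.81 ± 0.61 that rests on the lower prednisolone array. The ligand Il6 was well above background on prednisolone array 1 alone and was not tested.

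Of 27 STAT3 targets and acute-phase genes, 23 were above 0 with a median of 0.41, although this list holds genes that interleukin-6 induces. Its median was -0.28 against prednisolone array 1, with 11 members above 0, and 1.21 against array 2, with 25. A2m, alpha-2-macroglobulin, a protease inhibitor and the classical acute-phase protein of the rat, read 1.07 and 1.27 after the antibody and -0.16 and -1.82 after prednisolone. The groups did not overlap, with a difference of 2.16 ± 0.81 (unadjusted p = 0.0355, limma). Cp, the copper carrier ceruloplasmin, gave 1.26 ± 0.41, with all probes of the gene between 1.11 and 1.51. Lbp, which carries bacterial lipopolysaccharide, read -1.69 and -1.88 against -2.31 and -3.82, a difference of 1.28 ± 0.54.

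The fibrinogen chains, made in injured tubules as well as in liver, had the antibody arrays inside the range of the prednisolone arrays for Fgb and Fga and above it for Fgg. Fgb read 4.21 and 4.41 after the antibody and 5.57 and 1.55 after prednisolone. Fga read 4.47 and 3.86 against 4.5 and 2.83, and Fgg 1.01 and 1.5 against 0.78 and -2.24. Their differences of 0.75 ± 1.43, 0.50 ± 0.99 and 1.98 ± 1.39 were all within the spread. The promoter search found the STAT motif TTCNNNGAA in 6 of 20 promoters of the STAT3 list (30%) and in 7.67% of all promoters. The share was not particular to this list, since 8 of 27 promoters of interferon-induced genes (29.6%) held the motif too.

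Tubule genes gave a different order of the prednisolone arrays. Proximal tubule genes were above 0 for 48 of 52 members, with a median of 0.50, of 0.75 against prednisolone array 1 and 0.17 against array 2. Both antibody levels lay between the prednisolone levels for 31 of them. The 2 with an unadjusted p under 0.05 were higher after the antibody, beside 2.58% of all genes. Dpep1, a brush-border dipeptidase that is also an adhesion receptor for neutrophils, read 0.95 and -0.23 after the antibody and -3.08 and -2.62 after prednisolone. This difference of 3.21 ± 0.62 (unadjusted p = 0.00167, limma) was the largest among the 10 genes plotted as higher after the antibody. The sodium-hydrogen exchanger Slc9a3 read 0.21 and 0.76 against -1.35 and -0.16, a difference of 1.25 ± 0.62. The tight-junction gene Cldn2 gave 0.54 ± 0.21.

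Genes of the loop of Henle, distal nephron and collecting duct had a median of 0.03 and divided evenly, 27 above 0 and 22 below. Prednisolone array 2 exceeded array 1 in 47 of the 49, with a median of -1.47 for array 1 minus array 2, and both antibody levels lay between them for 37. Egf, made by the distal tubule, read 5.16 and 2.95 after the antibody and 1.27 and 5.96 after prednisolone. Fxyd4, a regulator of the sodium pump in the collecting duct, was an exception with tight pairs, at 2.46 and 2.66 after the antibody and 3.33 and 3.65 after prednisolone. It was higher after prednisolone by a difference of -0.93 ± 0.27 (unadjusted p = 0.0136, limma).

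At an unadjusted p under 0.05, 202 genes were higher after prednisolone, and 315 with normexp background correction. Sema3c, a secreted guidance factor, read -3.11 and -3.49 after the antibody and -2.05 and -2.39 after prednisolone, a difference of -1.08 ± 0.26 (unadjusted p = 0.00507, limma), while its second probe gave -0.41. The first of these probes lies in the area of the streak and was well above background on prednisolone array 2. Krt19, a keratin of the collecting duct and injured tubule cells, read 1.54 and 0.83 against 2.19 and 2.17, a difference of -0.99 ± 0.29. Bik, a promoter of apoptosis, gave -0.84 ± 0.23 and Retn, the adipokine resistin, -1.28 ± 0.36. By the probes reported, the arrays of these genes did not overlap between the treatments. Those of the second Sema3c probe did, at -4.78 and -4.16 against -3.72 and -4.41.

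Tubular injury genes and p53 targets had medians below 0, toward prednisolone, and both medians turned with the array. Of 34 injury and repair genes, 24 were below 0 with a median of -0.23. Among them 1 had an unadjusted p under 0.05, beside 0.826% of all genes higher after prednisolone. Against prednisolone array 1 the median was -0.87 and against array 2 it was 0.38. The injury marker Havcr1 (KIM-1) read 3.56 and 5.49 after the antibody and 6.95 and 2.01 after prednisolone, so both prednisolone arrays lay outside the antibody pair. Its spot was left out on 1 untreated array, and a fit of the 4 treated arrays gave 0.04 ± 1.80. Of 16 p53 targets, 11 were below 0 with a median of -0.18, which was -0.67 against prednisolone array 1 and 0.04 against array 2. Ccng1, cyclin G1, read 1.78 and 1.84 against 2.57 and 2.21, a difference of -0.57 ± 0.23 (unadjusted p = 0.0475, limma). The cell cycle inhibitor Cdkn1a gave -0.71 ± 0.38.

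Some genes were well above background on both arrays of a treatment and on neither of the other. Higher after the antibody in this way were C7, Lum and Cd3e, with the bounds given above, and the sulfotransferase Chst1, for which no bound above 1-fold could be given. In the other direction the glycosyltransferase Galnt9 was at least 4.46-fold and the proton pump subunit Atp4a at least 3.12-fold higher after prednisolone.

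**Figure D4:**
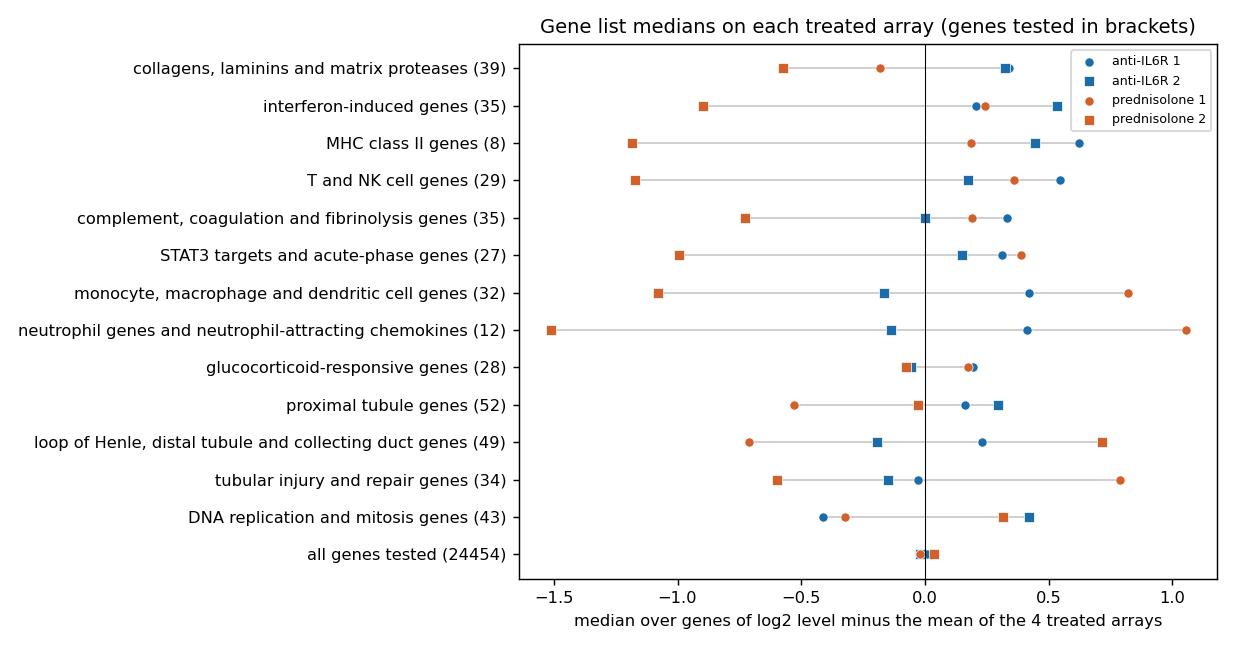
For each list, the median over its genes of the level on an array minus the mean of the 4 treated arrays, in log2 units; the number of genes tested is in brackets, circles are replicate 1 and squares replicate 2. Matrix genes have both antibody arrays (0.34 and 0.32) above both prednisolone arrays (-0.18 and -0.57), whereas T and NK cell genes have prednisolone array 1 (0.36) between the antibody arrays (0.55 and 0.18) and array 2 at -1.17.

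The untreated arrays lay on another slide, so treatment and slide cannot be told apart in any contrast with them, and their levels are given without a test. C1s read 2.26 and 3.05 on the low-difference arrays, as on the antibody arrays, and 0.67 and -0.44 on the untreated high-difference arrays, as on the prednisolone arrays. Dpep1 showed the same order, at -0.10 and 0.87 with the low difference and -1.99 and -3.40 with the high difference. Cxcl9 read -1.33 and -2.27 with the low difference and -4.93 and -4.47 with the high difference, where prednisolone arrays were in between. A2m read 1.95 and 1.07 with the untreated high difference, close to the antibody arrays. Matrix genes as a list stood at -0.38 and -0.85 on the high-difference arrays and -0.71 and 0.20 on the low-difference arrays, on the scale of the plot of list medians.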

How the data were processed

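The 8 kidneys were profiled on 1-colour Agilent arrays and quantified by Feature Extraction, version 9.5.1.1 in the file headers. The deposited intensity used here is the processed signal, background-subtracted and detrended within the array, with surrogates for low signals and no scaling between arrays, per the file headers. The authors' deposited value table holds the same intensities times 1 factor per array. Control and outlier spots (205 to 373 an array) were left out, log2 signals of repeated spots averaged, and the 75th percentile of each array subtracted. Of 41012 probes, 765 lacked an unflagged spot on some array and 11562 were not well above background on both arrays of any group. The other 28685 stood for 24454 genes, each by its brightest probe, named from the files and RefSeq (GRCr8). 20929 probes kept the name in the files.

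All 8 arrays were fitted with limma 3.58.1 in R 4.3.3 (lmFit, eBayes, 4 residual degrees of freedom), with Benjamini-Hochberg adjustment over all genes and a threshold of 0.05, and the fit was tested on simulated data. With 2 arrays a group, their number limits precision. Where a probe was below background on both arrays of a treatment, "at least" folds set the brighter mean against the lowest signal well above background.

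The members and the 38 gene lists were chosen with earlier results of these data known. Named were the 10 separated genes each way with the smallest p, 4 each way bright in 1 treatment only, up to 4 of each list by p, set pathway genes, and the 6 each way that differed most between the prednisolone arrays. Other named genes were chosen after their values were seen. Some genes that the rule takes are not reported here. The alternatives changed background correction, scaling, filter, probe choice, variance trend, arrays fitted, pairing and each array.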

Additional observations from a re-analysis of the deposited data

Results flagged for a closer look

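Il6, the ligand of the receptor that the antibody blocks, gave a signal outside the genes tested. Its probe was well above background on prednisolone array 1, at -5.56, and on none of the other 7 arrays, which read -6.81 and -7.17 after the antibody, -7.24 on prednisolone array 2 and -7.44 to -8.24 without treatment. It drew attention because no other array, treated or untreated, carried a signal well above background, and 1 array has no replicate check.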

How the results depend on the processing

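All 20 alternatives kept the count of genes with an adjusted p under 0.05 at 0, except quantile normalization with 2 (both higher after the antibody) and the fits without a prednisolone array; leaving out single arrays gave 0 to 130, with 60 of the 130 in the streak. At an unadjusted p under 0.05 the total was 1285 with no filter on dim probes and 513 with genes bright on all 8 arrays, and it ran from 471 to 3315 when single arrays were left out. The 631 genes higher after the antibody became 300 with normexp background correction and 332 with genes bright on all 8 arrays (350 to 2065 without single arrays). The 202 higher after prednisolone became 315 with normexp, 341 with median centring, 581 with no filter and 111 in a fit of the 4 arrays alone (72 to 1250 without single arrays). The share higher after the antibody, 75.8%, was 48.8% with normexp, 64.2% with quantile normalization, 58.3% with median centring and 54.8% with no filter; the cause was not tested.

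The matrix list median ranged from 0.46 to 0.97 and the glucocorticoid list median from -0.17 to 0.19 over single arrays left out. Cd3e reversed to -0.051 with normexp. Fosl1 was 1.25 without prednisolone array 1 and -3.93 without array 2, and Reg3b 2.89 and -2.07. Of 199 named genes, 57 changed sign under some alternative, and of the 53 at an unadjusted p under 0.05, 1 did. Many of the 53 were named for a small p or for arrays that did not overlap. Genes without overlap cannot change sign when 1 array is left out, so their stable sign there is no check.

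The replicate numbers did not pair the samples: deviations of same-numbered treated arrays correlated at -0.156. With the replicate number as a block, 0 genes were called and 737 had an unadjusted p under 0.05; the crossed pairing, chosen after seeing the data, gave 0 and 995. Without the spots of the streak, also chosen after seeing the data, 0 were called and 789 had an unadjusted p under 0.05. Both treatments share a slide, so a slide block could not be fitted to this contrast beyond the groups. Signals near background, as for Zbtb16, limit dim genes, and 2 arrays a group limit all of them.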

Other observations

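Proximal tubule genes did not move as a block between the prednisolone arrays. Of 52 members, 16 were higher on array 1 and 36 on array 2. Slc5a2, the glucose transporter SGLT2 of the early proximal tubule, read 7.22 on array 1 and 2.46 on array 2, with 5.98 and 6.75 after the antibody and 4.48 to 5.89 without treatment. Slc7a7, a basolateral amino acid exchanger, showed the same order at 1.76 and -3.42, and Slc34a3, a phosphate transporter, at 2.36 and -1.32. The water channel Aqp1 ran the other way, at 4.20 on array 1 and 7.07 on array 2. Slc34a3 and Aqp1 were named after their values were seen.

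Other genes that differed most between the prednisolone arrays were Fosl1, an AP-1 subunit (0.49 and -4.69), Il24, a cytokine of the interleukin-10 family (2.75 and -2.25), and Reg3b, a secreted lectin (0.27 and -4.69), all higher on array 1. Higher on array 2 were Cyp2c11, a cytochrome P450 (-4.94 and 0.28), and Abcc8, the sulfonylurea receptor (-5.01 and 0.09). Oxidative phosphorylation genes were higher on array 2 in 39 of 39 members, by a small median of 0.54.

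DNA replication and mitosis genes separated the replicates of both treatments and not the treatments. All 43 members were lower on antibody array 1 than on array 2, by a median difference of -0.84, and 41 were lower on prednisolone array 1 than on array 2, by -0.70. The median between treatments was 0.02, with 0 members at an unadjusted p under 0.05 by limma and 0 at an adjusted one.

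Probes of 2 genes disagreed widely. Ms4a7, a membrane protein of macrophages, read 1.46 on prednisolone array 2 by its brighter probe and -4.29 by another, while both placed prednisolone array 1 near the antibody arrays. A second probe of the urea transporter Slc14a2 read -1.97 and 0.92 after the antibody and was below background on both prednisolone arrays, at -8.05 and -7.20. Without treatment that probe read -8.06 and 1.53 on the low-difference arrays, so it was bright or dark within a group too.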
